A study of Mus musculus with 2 samples.

Results

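The 9 genes described here code for growth signals of macrophages and blood cells or for their receptors, and were followed through nuclei of regenerating mouse liver: the ligands Csf1, Il34 and Kitl, and the receptors Csf1r, Csf2ra, Csf2rb, Csf3r, Kit and Flt3. They are 9 of 27998 genes in the deposited tables. They were chosen by name, with their levels in these libraries already known, for the classes of nuclei that hold ligand or receptor and for their ratio between the libraries, so their values are given as a description and without a test. The study compared mouse liver labelled Sox9HKO (HKO) with mouse liver labelled Sox9f/f (WT). Both groups are labelled C57BL/6 and 12 weeks old, and were sampled at 48 h from PHx, partial hepatectomy, in which a portion of the liver is cut away. The labels do not spell out the HKO abbreviation or name a Cre driver, and the WT control also carries the floxed Sox9 allele. Each group is 1 library of single nuclei, read by droplet-based sequencing of transcript 3' ends, and how many animals each library holds is not stated. With 1 library per group the differences have no replicate check, and intervals cover counting error only.

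Colony-stimulating factor 1 (Csf1) and interleukin 34 (Il34) are ligands of the same receptor, the tyrosine kinase coded by Csf1r, which macrophages need to survive and divide. Resident liver macrophages, the Kupffer cells, sit beside endothelial and stellate cells of the sinusoid, which are known sources of these ligands. Csf2ra codes for the chain that binds GM-CSF and Csf2rb for the common signalling chain used by the GM-CSF, IL-3 and IL-5 receptors. Csf3r codes for the receptor of G-CSF, best known on neutrophils and their precursors. Stem cell factor (Kitl) binds KIT, known from blood progenitors and mast cells and also from sinusoidal endothelium, while FLT3 is the receptor that dendritic cell precursors depend on.

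The promoters of Csf3r and Csf2ra are shown first: among the 4 large classes (hepatocyte-like, endothelial-like, macrophage-like and stellate-like nuclei) both receptors were highest in macrophage-like nuclei, where Csf3r was higher in HKO and Csf2ra was alike in both libraries. Each window is the 250 bases before the RefSeq gene start in GRCm38.p6, written 5′ to 3′ on the strand of the gene. Capitals mark GAGGAA, the core letters bound by the macrophage factor PU.1, searched on both strands (TTCCTC on the other). The Csf2ra window (chr19:61228419-61228668, minus strand) held it at 14 and 8 bases before the start, and the Csf3r window (chr4:126024409-126024658, plus strand) held it at 86 bases before the start.
Csf3r: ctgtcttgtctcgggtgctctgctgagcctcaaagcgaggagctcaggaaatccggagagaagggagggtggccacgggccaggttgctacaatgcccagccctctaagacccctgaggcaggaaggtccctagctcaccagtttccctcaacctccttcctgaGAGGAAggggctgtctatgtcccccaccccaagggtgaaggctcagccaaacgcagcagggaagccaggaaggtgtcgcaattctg
Csf2ra: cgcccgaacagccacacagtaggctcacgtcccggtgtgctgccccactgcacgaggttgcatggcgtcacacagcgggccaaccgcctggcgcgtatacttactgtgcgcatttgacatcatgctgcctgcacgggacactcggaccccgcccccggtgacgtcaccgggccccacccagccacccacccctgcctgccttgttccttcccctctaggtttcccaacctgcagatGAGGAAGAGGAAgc
The 2 matches of Csf2ra adjoin each other. In the GENCODE vM21 annotation both genes start earlier than in RefSeq, Csf3r at base 126024550 and Csf2ra at base 61228429, inside these windows. By that annotation the Csf3r match and the Csf2ra match at 8 bases lie within the gene. The letters occurred in 23.3% of 32817 windows of the same length, so a match alone sets neither gene apart. A window was looked up for 6 of the 9 genes, and those of Kit also held a match, while those of Csf1, Flt3 and Kitl did not.

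The genes lie on separate chromosomes apart from Kit and Flt3. In GRCm38 with the GENCODE vM21 annotation, the ligand genes are Csf1 (chr3:107741048-107760469, minus strand), Il34 (chr8:110741829-110805924, minus) and Kitl (chr10:100015630-100100416, plus). The receptor genes are Csf1r (chr18:61100598-61132149, plus), Csf2ra (chr19:61223957-61228429, minus), Csf2rb (chr15:78325752-78353847, plus), Csf3r (chr4:126024550-126044440, plus), Kit (chr5:75574916-75656722, plus) and Flt3 (chr5:147330741-147400489, minus). Il34, Csf1r and Flt3 overlap genes on the opposite strand, and reads of such pairs cannot be told apart unless strand was used in counting, which is not stated. Csf2rb shared 28.8% of its 30-base stretches with its neighbour and paralog Csf2rb2, but 1.40% within the last 500 bases, where 3' reads mostly fall.

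In HKO 14912 barcodes carried 61123904 unique molecular identifiers (UMIs, counted RNA molecules), the median barcode 3286. In WT 14701 barcodes carried 64609301 UMIs, the median barcode 3430. Barcodes under 2000 UMIs numbered 3856 in HKO and 288 in WT, and 70 barcode sequences occurred in both libraries. Nuclei were clustered without the 9 genes and their pathway partners, and clusters were named by marker genes. They gave hepatocyte-like (8632 HKO, 9328 WT), endothelial-like (2520 HKO, 1121 WT), macrophage-like (1581 HKO, 1035 WT), stellate-like (1142 HKO, 619 WT), cholangiocyte-like (122 HKO, 32 WT) and dendritic-like nuclei (107 HKO, 15 WT). Mixed clusters held B and T/NK markers (463 HKO, 134 WT) or dendritic and monocyte markers (235 HKO, 44 WT), and a cluster led by mitochondrial genes (100 HKO, 2187 WT) stayed unnamed. Stellate-like nuclei of both libraries lay in cluster 6, while the other large classes lay mostly in different clusters: 3 in HKO and 8 in WT for endothelial-like, 7 in HKO and 9 in WT for macrophage-like, and 3 clusters in HKO and 4 in WT for hepatocyte-like nuclei. Hepatocyte RNA was present in every class. Over the 15 hepatocyte markers, the median level in macrophage-like nuclei was 84.9% of the same marker's level in hepatocyte-like nuclei in HKO and 86.8% in WT. The level of each gene in hepatocyte-like nuclei therefore stands beside its level elsewhere as a measure of free RNA. Sox9 itself had 5.77 CPM (counts per 1e6 UMIs of the class; 220 UMIs) in HKO hepatocyte-like nuclei, against 11.2 CPM (475 UMIs) in WT ones. Which Sox9 exons the allele removes is not stated in the labels, so 3' counts are a limited check of the genotype.

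**Figure D1:**
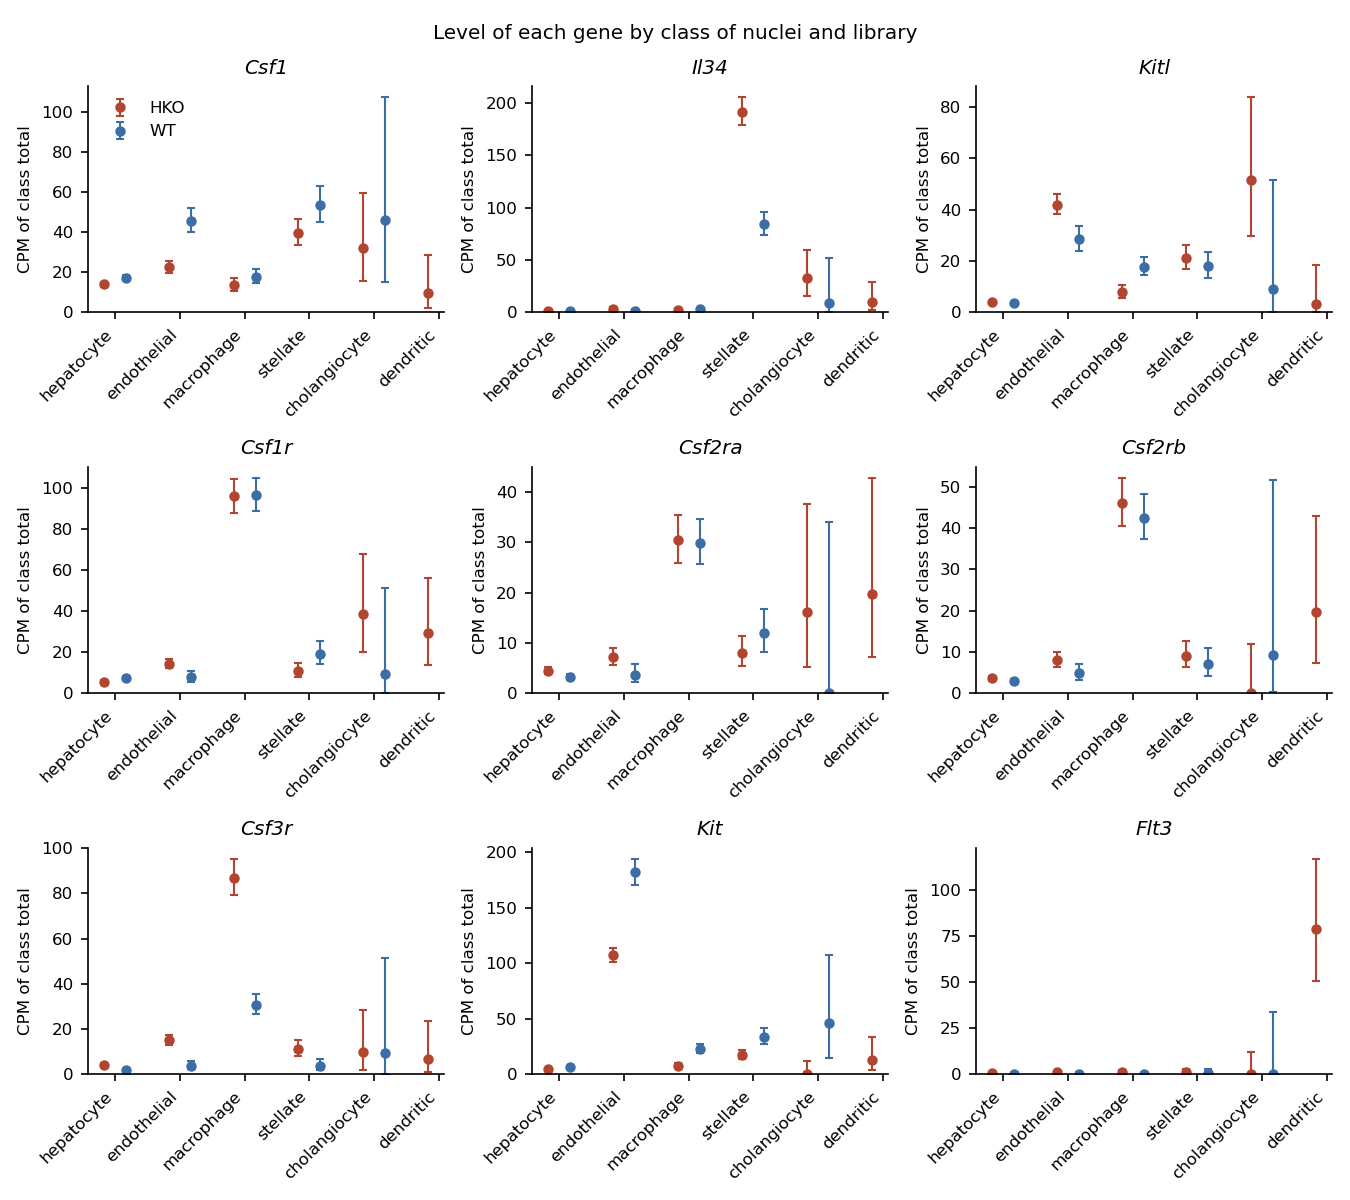
Level of each of the 9 genes (CPM of the class total, linear axis from 0) in 6 classes of nuclei, HKO in red and WT in blue, with exact 95% Poisson intervals. The ligand Il34 stood out in stellate-like nuclei, Kit in endothelial-like nuclei and Csf1r in macrophage-like nuclei. Csf2ra, Csf2rb and Csf3r were also highest in macrophage-like nuclei. There the intervals of Csf2ra and Csf2rb in both libraries, and of Csf3r in WT, overlapped those of dendritic-like or cholangiocyte-like nuclei. The mixed clusters and WT dendritic-like nuclei (15) are not drawn.

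Among the ligands, Il34 was a transcript of stellate-like nuclei, and its level there was higher in HKO. It had 192 CPM in HKO stellate-like nuclei (764 UMIs, 95% interval 178 to 206), against 84.0 CPM in WT ones (226 UMIs, 73.4 to 95.7). The intervals did not overlap, and the ratio was 2.28 (exact conditional interval 1.97 to 2.66; log2 ratio 1.19). In hepatocyte-like nuclei Il34 had 1.55 CPM in HKO and 0.940 CPM in WT, far below the stellate level. Stellate-like nuclei held 85.5% of all Il34 UMIs in HKO and 72.4% in WT. The next class was cholangiocyte-like, with 32.3 CPM in HKO from 10 UMIs and 9.24 CPM in WT from 1 UMI. Below that class the neighbours in the order overlapped in their intervals in both libraries. Of the 3 genes of the set with a mean of at least 20 CPM in stellate-like nuclei, Il34 was the 1 past a 2-fold higher level in HKO, a limit that 2.47% of 6913 genes passed in that direction. With only nuclei of at least 2000 UMIs the log2 ratio was 0.94, and per nucleus it was 0.87, both short of 2-fold.

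Clustered within each library, stellate-like nuclei gave 4 sub-clusters in HKO and 3 in WT. Il34 ranged from 106 to 367 CPM over the HKO sub-clusters and from 60.4 to 121 CPM over the WT ones, so the ranges overlapped. At like sums of stellate markers, 6728 CPM in HKO against 7061 CPM in WT, the sub-clusters had 106 CPM of Il34 in HKO, against 61.7 CPM in WT. The sub-cluster richest in stellate markers had 503 nuclei and 367 CPM in HKO, against 355 nuclei and 121 CPM in WT. Their ratio was 3.03 (2.46 to 3.74), larger than over the whole class. The summed stellate markers in these sub-clusters were 19775 CPM in HKO, against 15575 CPM in WT. Scaled to 389 genes enriched in stellate-like nuclei, whose own sum differed by 1.04-fold, the log2 ratio over the class was 1.14.

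Csf1, the other ligand of the receptor, was spread over more classes and was lower in HKO, most of all in endothelial-like nuclei. There it had 22.5 CPM in HKO (236 UMIs, 19.7 to 25.5), against 45.7 CPM in WT (235 UMIs, 40.1 to 52.0). The ratio was 0.492 (0.409 to 0.591; log2 ratio -1.01). Csf1 was the 1 of 3 genes of the set tested in endothelial-like nuclei past a 2-fold lower level, where 4.67% of 6762 genes passed in that direction. It lies at the limit: the log2 ratio was -0.95 with all variable genes used for clustering and -0.88 with a larger pseudocount of 5 CPM. In the endothelial sub-cluster richest in its own markers Csf1 had 28.2 CPM in HKO and 82.5 CPM in WT, from 92 UMIs each. The ratio was 0.342 (0.253 to 0.462), and at a clustering resolution of 1 it was 0.407 (0.288 to 0.575). Those sub-clusters were unlike in markers of zone. At a resolution of 0.5, 38 HKO nuclei with 1853 CPM of summed central vein markers formed a separate sub-cluster. Summed markers of central vein endothelium were 445 CPM in HKO and 1039 CPM in WT at a resolution of 0.5. In their nuclei with UMIs of portal markers but none of central vein markers, Csf1 had 32.9 CPM in HKO (24.6 to 43.2). The same nuclei of WT had 81.3 CPM (53.1 to 119), with intervals apart. Nuclei with central vein but no portal UMIs had 40.3 CPM in HKO (20.1 to 72.1) and 103 CPM in WT (61.2 to 163), with overlapping intervals. The part of zone in the Csf1 ratio was not tested.

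Stellate-like nuclei had the highest Csf1 level in both libraries, 39.7 CPM in HKO, against 53.5 CPM in WT. Their ratio was 0.741 (0.587 to 0.935), so the direction was the same as in endothelial-like nuclei and the difference smaller. In the stellate sub-cluster richest in its markers the levels were 57.7 CPM in HKO and 65.5 CPM in WT, with a ratio of 0.880 (0.608 to 1.27) whose interval includes 1. Hepatocyte-like nuclei had 13.9 CPM in HKO, against 17.3 CPM in WT. Because they are many, they held 51.9% of Csf1 UMIs in HKO, against 55.5% in WT. Macrophage-like nuclei had 13.6 CPM in HKO and 17.7 CPM in WT, levels that overlapped those of hepatocyte-like nuclei. In the cholangiocyte-like class 10 UMIs in HKO and 5 in WT gave intervals too wide to order it against stellate-like or endothelial-like nuclei.

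Kitl, the ligand of KIT, was highest in endothelial-like nuclei of WT, and in HKO was shared by endothelial-like and cholangiocyte-like nuclei. Endothelial-like nuclei had 41.9 CPM in HKO (440 UMIs), against 28.4 CPM in WT (146 UMIs). The ratio was 1.48 (1.22 to 1.79), below 2-fold. In the endothelial sub-cluster richest in its markers the levels were 75.7 CPM in HKO (1391 nuclei) and 80.7 CPM in WT (419 nuclei), a ratio of 0.939 (0.734 to 1.21). There the interval includes 1, and at a clustering resolution of 1 the same comparison gave 98.4 CPM in HKO, against 82.5 CPM in WT, a ratio of 1.19 (0.909 to 1.58). Cholangiocyte-like nuclei of HKO had 51.7 CPM from 16 UMIs, with an interval (29.6 to 84.0) that overlaps the endothelial one, and those of WT had 9.24 CPM from 1 UMI. The highest level of any endothelial sub-cluster, 136 CPM, was in 38 HKO nuclei led by Vwf, the von Willebrand factor gene of larger vessels. That level rests on few nuclei, with a median of 1689 UMIs each, and its order against the other sub-clusters was not tested.

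In macrophage-like nuclei Kitl was lower in HKO, with 7.94 CPM from 42 UMIs, against 17.7 CPM from 102 UMIs in WT. The ratio was 0.450 (0.306 to 0.650; log2 ratio -1.10). The same held in the sub-cluster richest in macrophage markers, with 16.3 CPM in HKO and 33.2 CPM in WT (ratio 0.492, 0.293 to 0.819). Summed endothelial markers in those sub-clusters were 768 CPM in HKO, against 659 CPM in WT, and their part in the Kitl difference was not tested. The log2 ratio was -0.68 with all variable genes and -0.63 with nuclei of at least 1000 genes, short of 2-fold. Stellate-like nuclei had 21.1 CPM in HKO and 17.8 CPM in WT, with a ratio of 1.18 (0.819 to 1.72).

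**Figure D2:**
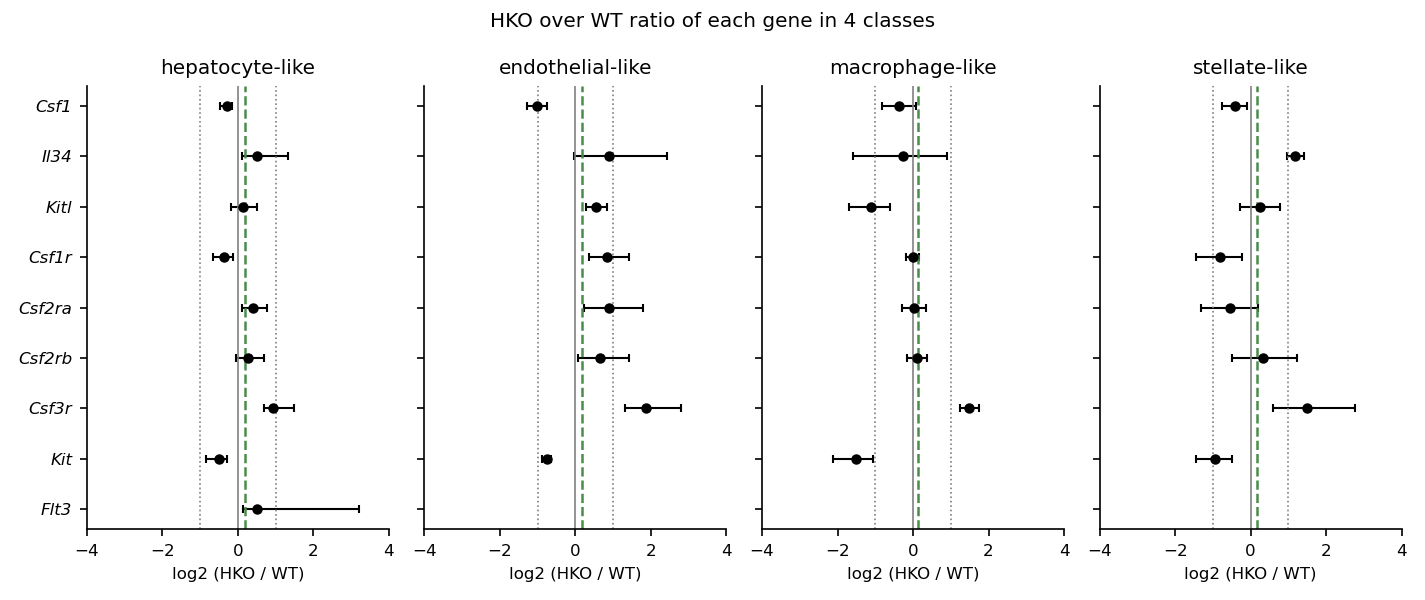
Log2 ratio of HKO over WT for each gene with at least 20 UMIs in 4 classes of nuclei; bars are exact 95% conditional intervals of the CPM ratio, dotted lines mark 2-fold and the green dashed line is the median of all genes tested in that class (0.12 to 0.18). Csf3r lies right of the line at 0 in all 4 classes and Kit lies left of it in all 4, while Csf1r, Csf2ra and Csf2rb lie near 0 in macrophage-like nuclei.

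Among the receptors, Csf1r was held mostly by macrophage-like nuclei, at much the same level in both libraries. It had 95.9 CPM in HKO (507 UMIs, 87.7 to 105) and 96.6 CPM in WT (558 UMIs, 88.8 to 105). The ratio was 0.992 (0.878 to 1.12). In the sub-cluster richest in macrophage markers it had 185 CPM in HKO (752 nuclei) and 219 CPM in WT (392 nuclei), a ratio of 0.843 (0.713 to 0.997) just under 1. Summed macrophage markers there were 5025 CPM in HKO, against 5741 CPM in WT. Csf1r in hepatocyte-like nuclei was 5.58 CPM in HKO, against 7.30 CPM in WT. The mixed dendritic and monocyte cluster had 57.9 CPM in HKO from 38 UMIs and 15.8 CPM in WT from 3 UMIs, with overlapping intervals.

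Outside the macrophage-like class the Csf1r ratios went both ways. Endothelial-like nuclei had 14.3 CPM in HKO and 7.78 CPM in WT (ratio 1.84, 1.29 to 2.67). Beside that, an HKO endothelial sub-cluster of 249 nuclei with a median of 5505 UMIs was led by macrophage genes such as Timd4, and it had 29.9 CPM of Csf1r and 958 CPM of summed macrophage markers. In the sub-cluster richest in endothelial markers Csf1r had 10.7 CPM in HKO and 17.0 CPM in WT, a ratio of 0.630 (0.351 to 1.17). Stellate-like nuclei had 10.8 CPM in HKO, against 19.3 CPM in WT (ratio 0.558, 0.364 to 0.853), and the lowest of these levels lie close to those of hepatocyte-like nuclei.

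Csf2ra and Csf2rb, the 2 chains of the GM-CSF receptor, were also highest in macrophage-like nuclei among the 4 large classes and also alike between libraries. Csf2ra had 30.4 CPM in HKO (161 UMIs) and 29.95 CPM in WT (173 UMIs), a ratio of 1.02 (0.815 to 1.27). Csf2rb had 46.0 CPM in HKO (243 UMIs) and 42.4 CPM in WT (245 UMIs), a ratio of 1.08 (0.903 to 1.30). These intervals exclude a 2-fold difference in either direction, though they do not show that the levels are equal. The mixed dendritic and monocyte cluster had more Csf2ra, 65.5 CPM in HKO (43 UMIs) and 31.6 CPM in WT (6 UMIs), with overlapping intervals. With only nuclei of at least 1000 genes clustered, Csf2ra was highest in dendritic-like nuclei in both libraries, and Csf2rb in those of WT. In hepatocyte-like nuclei both chains lay between 2.87 and 4.43 CPM in the 2 libraries.

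Csf3r, unlike those 3 receptors, had a higher level in HKO. In macrophage-like nuclei it had 87.0 CPM in HKO (460 UMIs, 79.2 to 95.3), against 30.8 CPM in WT (178 UMIs, 26.5 to 35.7). The ratio was 2.82 (2.37 to 3.38; log2 ratio 1.48). Of the 4 genes of the set with a mean of at least 20 CPM in macrophage-like nuclei, Csf3r was the 1 past a 2-fold higher level, where 2.61% of 6944 genes passed in that direction. In the sub-cluster richest in macrophage markers it had 161 CPM in HKO and 76.0 CPM in WT, a ratio of 2.11 (1.66 to 2.72). Over all macrophage sub-clusters it ranged from 38.3 to 161 CPM in HKO and from 14.1 to 76.0 CPM in WT. The log2 ratio of UMIs per nucleus was 0.76, below 2-fold, beside medians for the class of 2117 UMIs in HKO, against 3366 in WT.

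Markers of neutrophils, the cells best known for Csf3r, were near the free RNA level in these nuclei. Their 10-gene sum in macrophage-like nuclei was 6.24 CPM in HKO, with 9 genes detected and Ly6g at 0. In WT it was 7.10 CPM, with 6 detected and Ly6g, Ngp, Ltf and Mpo at 0. Hepatocyte-like nuclei had 4.72 CPM in HKO and 5.21 CPM in WT of the same sum. Within the richest sub-cluster, Csf3r had 145 CPM in HKO nuclei with at least 3 UMIs of cycling genes and 196 CPM in those with none. In WT it had 43.2 CPM in cycling nuclei and 102 CPM in those with none, so it was higher in HKO in both states, with intervals apart.

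Csf3r was higher in HKO in the other large classes too, at much lower levels. Endothelial-like nuclei had 14.96 CPM in HKO and 3.70 CPM in WT (ratio 4.04, 2.51 to 6.90). Stellate-like nuclei had 11.3 CPM in HKO, against 3.72 CPM in WT (ratio 3.04, 1.51 to 6.76), and hepatocyte-like nuclei 4.17 CPM in HKO and 1.95 CPM in WT (ratio 2.14, 1.63 to 2.82). The macrophage-led HKO endothelial sub-cluster had 30.5 CPM. In the sub-cluster richest in endothelial markers Csf3r had 7.05 CPM in HKO and 6.27 CPM in WT, a ratio of 1.12 (0.467 to 3.10), so the endothelial difference was not seen there. Monocytes can carry this receptor as well. In the mixed dendritic and monocyte cluster it had 83.8 CPM in HKO (55 UMIs) and 58.0 CPM in WT (11 UMIs), with overlapping intervals. Unlike macrophage-like nuclei, that cluster also held neutrophil markers above the free RNA level. Their 10-gene sum was 104 CPM in HKO (68 UMIs, 8 genes detected) and 116 CPM in WT (22 UMIs, 4 detected). The part of neutrophils or monocytes in its Csf3r level was not tested.

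**Figure D3:**
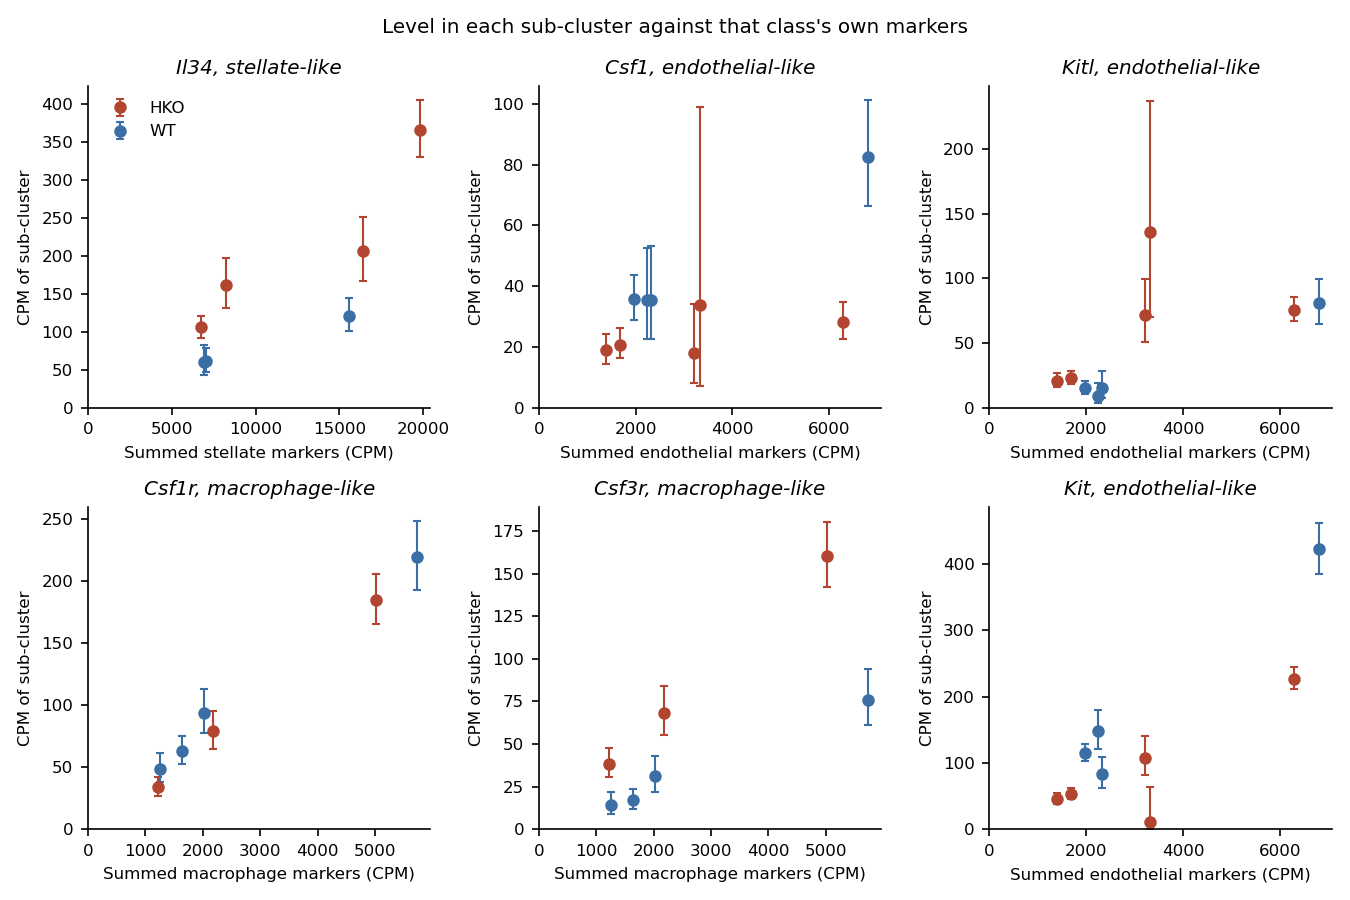
Level of 6 gene and class pairs in each sub-cluster (CPM, with exact 95% Poisson intervals) against the summed markers of that class in the same sub-cluster (CPM), HKO in red and WT in blue. Il34 and Csf3r lie higher in HKO at like marker levels, Kit and Csf1 lie lower in HKO, and Csf1r follows macrophage markers in both libraries.

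Kit was a transcript of endothelial-like nuclei and was lower there in HKO. It had 107 CPM in HKO (1126 UMIs, 101 to 114), against 182 CPM in WT (936 UMIs, 171 to 194). The ratio was 0.589 (0.539 to 0.643; log2 ratio -0.76), short of 2-fold, although with nuclei of at least 2000 UMIs it passed at -1.15. In the sub-cluster richest in endothelial markers Kit had 227 CPM in HKO and 422 CPM in WT, a ratio of 0.537 (0.478 to 0.604). At a clustering resolution of 1 that ratio was 0.649 (0.571 to 0.737). The sub-clusters compared were unlike in markers of zone, with 445 CPM of summed central vein markers in HKO and 1039 CPM in WT at a resolution of 0.5. At a resolution of 1 these sums were 532 CPM in HKO and 938 CPM in WT. Endothelial-like nuclei held 77.3% of Kit UMIs in HKO and 60.0% in WT. Over the whole library, where more nuclei of a class and more RNA per nucleus cannot be told apart, Kit was nearly level, with 23.9 CPM in HKO and 24.6 CPM in WT.

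Within the sub-cluster richest in endothelial markers Kit was also measured by the zone of the endothelium. Nuclei with UMIs of the central vein list but not of the portal list had 370 CPM in HKO (144 nuclei, 301 to 450) and 424 CPM in WT (65 nuclei, 333 to 533). Nuclei with portal but no central vein UMIs had 173 CPM in HKO (699 nuclei, 153 to 195) and 294 CPM in WT (129 nuclei, 238 to 360). The central vein level was above the portal one with intervals apart in HKO, while in WT the intervals of the zones overlapped. Between the libraries the intervals overlapped on the central vein side and were apart on the portal side. On the central vein side Kitl measured 66.0 CPM in HKO, against 74.5 CPM in WT, and on the portal side 93.02 CPM in HKO, against 62.6 CPM in WT, with overlapping intervals between the libraries on both sides.

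Markers of the blood cells known for KIT were also measured in endothelial-like nuclei. Of 9 mast cell and basophil markers, 3 were detected in HKO and 2 in WT, and Mcpt8, Cpa3, Mcpt4, Tpsb2, Ms4a2 and Fcer1a were at 0 in both. The sum of the list was 34.4 CPM in HKO, against 17.1 CPM in WT, and in hepatocyte-like nuclei 5.37 CPM in HKO, against 3.31 CPM in WT. Those detected were Hdc and Gata2 in both libraries and Cma1 in HKO, and Gata2, a transcription factor gene also known from endothelium, stands on the next list too. The 7 markers of blood stem and progenitor cells reached a sum of 249 CPM in HKO, against 209 CPM in WT. In hepatocyte-like nuclei that sum was 205 CPM in HKO, against 152 CPM in WT, with Hoxa9 at 0 in both classes. The part of either list in the Kit levels was not tested.

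In every other class Kit was lower than in endothelial-like nuclei. The mixed dendritic and monocyte cluster had 32.0 CPM in HKO (21 UMIs, 19.8 to 48.9) and 31.6 CPM in WT (6 UMIs). Cholangiocyte-like nuclei had 46.2 CPM in WT from 5 UMIs and 0 UMIs in HKO. Macrophage-like nuclei had 7.56 CPM in HKO and 22.7 CPM in WT (ratio 0.334, 0.228 to 0.478; log2 ratio -1.52). A WT macrophage sub-cluster of 123 nuclei, led by endothelial genes such as Eng and Shank3 and with 1270 CPM of summed endothelial markers, had 65.9 CPM of Kit. In the sub-cluster richest in macrophage markers Kit had 10.7 CPM in HKO and 10.5 CPM in WT, a ratio of 1.02 (0.471 to 2.31), so the macrophage difference was not seen there. Stellate-like nuclei had 17.3 CPM in HKO and 33.8 CPM in WT, a ratio of 0.512 (0.369 to 0.708). The stellate sub-clusters with the most endothelial RNA had the most Kit, 62.3 CPM in HKO and 83.6 CPM in WT. In the sub-cluster richest in stellate markers Kit was also lower in HKO, with 12.9 CPM from 13 UMIs, against 26.4 CPM from 27 UMIs in WT. That ratio was 0.490 (0.232 to 0.982), and 0.438 (0.189 to 0.958) at a clustering resolution of 1.

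Flt3 was rare, and its level was highest in the clusters with dendritic markers. The HKO library held 98 Flt3 UMIs and the WT library 20, a whole-library ratio of 5.10 (3.13 to 8.71). HKO dendritic-like nuclei had 78.8 CPM (24 UMIs in 107 nuclei, 50.5 to 117), while the 15 WT ones had 1 UMI. The mixed dendritic and monocyte cluster had 51.8 CPM in HKO (34 UMIs, 35.9 to 72.4) and 36.9 CPM in WT (7 UMIs, 14.8 to 76.1). Its intervals overlap, so within that class a difference was not detectable at this depth, and the HKO library had more nuclei of both classes (107 and 235) than the WT library (15 and 44). In every other class Flt3 was at most 1.86 CPM, a value from 1 UMI in WT nuclei of the mixed B and T/NK cluster. Because they are many, hepatocyte-like nuclei held 16 of the Flt3 UMIs in HKO and 6 in WT. Clustered within HKO alone at a resolution of 1, the dendritic and monocyte nuclei gave 5 sub-clusters. A sub-cluster of 46 nuclei with markers of type 1 conventional dendritic cells had 268 CPM of Flt3 (27 UMIs, 177 to 390), and 78 nuclei with markers of plasmacytoid dendritic cells had 103 CPM (20 UMIs, 63.1 to 160). A sub-cluster of 70 nuclei with monocyte markers had 0 Flt3 UMIs, and the other 2 sub-clusters had 2 UMIs in 92 nuclei and 9 UMIs in 56 nuclei. At a resolution of 0.5 the markers of monocytes and of type 1 dendritic cells fell into 1 sub-cluster of 197 nuclei with 78.2 CPM.

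The lymphocyte clusters, separate only at a clustering resolution of 1, held few UMIs of any of the 9 genes. T/NK nuclei had at most 17.2 CPM in HKO (302 nuclei, Csf3r) and 19.3 CPM in WT (102 nuclei, Csf1). B nuclei had at most 14.6 CPM in HKO (164 nuclei) and 55.0 CPM in WT (30 nuclei), both for Kit, from 8 and 6 UMIs. Those of WT also had 36.7 CPM of Csf2rb from 4 UMIs, too few to place these levels against other classes.

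Shares of nuclei with a UMI were compared after every nucleus was thinned to 1000 UMIs. Il34 was found in 19.3% of HKO stellate-like nuclei (17.0 to 21.7) and 10.8% of WT ones (8.49 to 13.5). Csf3r was found in 10.9% of HKO macrophage-like nuclei (9.45 to 12.6) and 3.96% of WT ones (2.86 to 5.34). In both cases the intervals were apart, and unthinned shares were 37.7% in HKO and 25.2% in WT for Il34 and 23.1% in HKO and 14.0% in WT for Csf3r. Csf1r had a UMI in 12.3% of macrophage-like nuclei in HKO, against 14.1% in WT, with overlapping intervals. Csf2ra had a UMI in 4.24% of them in HKO, against 5.51% in WT, also with overlapping intervals and opposite in order to its levels, and Csf2rb in 6.14% in HKO, against 5.02% in WT. Kit had a UMI in 14.9% of endothelial-like nuclei in HKO, against 17.8% in WT, with overlapping intervals. At 1000 UMIs the difference in its level was therefore not resolved in shares. Thinned to 2000 UMIs, a depth reached by 1356 HKO and 1099 WT endothelial-like nuclei, its shares were 20.1% in HKO and 31.0% in WT. Unthinned they were 31.3% in HKO (29.5 to 33.2) and 45.6% in WT (42.6 to 48.6), beside class medians of 2115 UMIs in HKO and 3258 in WT. Kitl had a UMI in 6.39% of endothelial-like nuclei in HKO, against 3.39% in WT. Thinned to 2000 UMIs, the Kitl shares were close, 7.67% in HKO and 7.28% in WT. Hepatocyte-like nuclei, the measure of free RNA, had between 0.0965% and 1.79% for the 8 genes drawn. In the richest macrophage sub-cluster Csf3r was found in 18.1% of Csf1r-positive HKO nuclei and 14.0% of Csf1r-negative ones, and in 8.43% and 5.83% in WT, with overlapping intervals within each library.

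**Figure D4:**
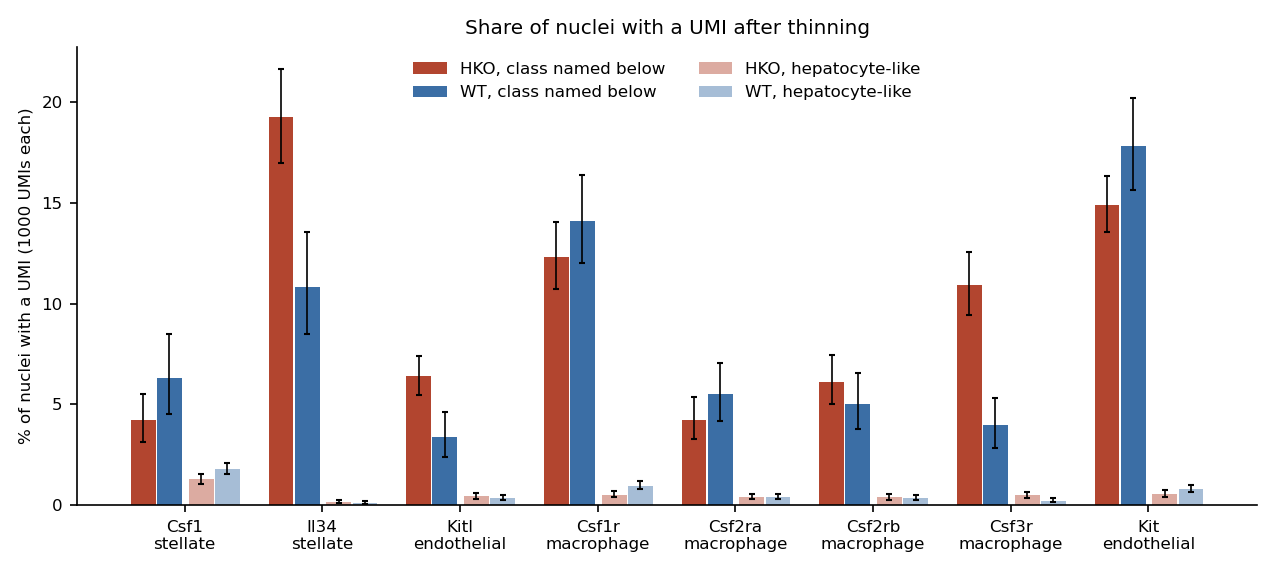
Share of nuclei with at least 1 UMI of each gene after thinning to 1000 UMIs per nucleus (percent, exact 95% Clopper-Pearson intervals), in the class named below each gene (full colour) and in hepatocyte-like nuclei (pale), HKO in red and WT in blue. HKO and WT intervals are apart for Il34, Csf3r and Kitl in the named class, and every named class lies above hepatocyte-like nuclei. Thinned to 2000 UMIs (not drawn), the Kitl shares were 7.67% in HKO and 7.28% in WT.

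Over all 33 pairs of gene and class with at least 20 UMIs, passing 2-fold was judged on log2 ratios after adding 0.5 CPM. By these, 4 passed 2-fold higher (Il34 in stellate-like nuclei and Csf3r in endothelial-like, macrophage-like and stellate-like nuclei). Another 3 passed 2-fold lower: Csf1 in endothelial-like nuclei, and Kitl and Kit in macrophage-like nuclei. Without the added 0.5 CPM, the folds of Csf3r (2.14) and Flt3 (2.98) in hepatocyte-like nuclei also exceeded 2. So did that of Il34 in endothelial-like nuclei (2.14, 0.976 to 5.34). All of these levels were low, and these pairs are not counted as past 2-fold here. In hepatocyte-like nuclei none of the 9 genes reached a mean of 20 CPM, where 7.57% of 6384 genes passed 2-fold, 3.02% higher and 4.54% lower. The shares of all genes tested past 2-fold were 7.51% in endothelial-like nuclei (2.84% higher, 4.67% lower), 6.42% in macrophage-like nuclei (2.61% higher, 3.82% lower) and 6.83% in stellate-like nuclei (2.47% higher, 4.35% lower). These shares cover only genes whose mean level reached 20 CPM, a floor met by 10 of the 33 pairs, of which 2 passed 2-fold higher and 1 lower. The other 4 of the 7 pairs past 2-fold lay under that floor (Csf3r in endothelial-like and stellate-like nuclei, Kitl and Kit in macrophage-like nuclei), so the shares are no background for them.

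Of 76 partner genes of these pathways, 75 were matched in the deposited tables, and most of those tested lay within 2-fold. In macrophage-like nuclei 45 had a mean of at least 20 CPM, of which 5 were past 2-fold higher and 4 past 2-fold lower. Over all 6944 genes tested there, 2.61% passed higher and 3.82% lower, smaller parts than of the partners. The partner list was chosen with earlier results known, so this difference was not tested. The median log2 ratio of the partners was 0.11, beside 0.12 for all genes. In endothelial-like nuclei 1 of 35 was higher and 3 lower, in stellate-like nuclei 1 of 35 higher and 2 lower, and in hepatocyte-like nuclei 1 of 28 higher and 3 lower. Over all genes the shares higher and lower were 2.84% and 4.67%, 2.47% and 4.35%, and 3.02% and 4.54%, in the same order of classes. The median log2 ratios of the partners were 0.16, -0.08 and -0.01, beside 0.18, 0.16 and 0.18 for all genes of these classes. Of the ligands in the list, Csf2, Csf3 and Il3, which code for GM-CSF, G-CSF and IL-3, had 0 UMIs in endothelial-like, macrophage-like and stellate-like nuclei of both libraries. The limit that a count of 0 allows, taken as 3 UMIs of the class total and so somewhat lower than the upper end of an exact interval, was 0.567 CPM in HKO, against 0.519 CPM in WT for macrophage-like nuclei. Flt3l, the FLT3 ligand gene, had 6.42 CPM in HKO, against 6.60 CPM in WT hepatocyte-like nuclei. Thpo, the thrombopoietin gene of hepatocytes, had 21.8 CPM in HKO and 30.3 CPM in WT there.

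In macrophage-like nuclei, the largest partner ratios were those of signalling and lineage genes. Pik3r5, a regulatory subunit of PI3 kinase gamma, had 57.9 CPM in HKO and 15.4 CPM in WT (log2 ratio 1.88). Spic, a transcription factor of macrophages that recycle red cells, had 71.3 CPM in HKO, against 19.7 CPM in WT (1.83), and the kinase gene Syk had 171 CPM in HKO and 59.7 CPM in WT (1.51). Irf8, a transcription factor of monocytes and dendritic cells, was lower, with 35.6 CPM in HKO, against 76.5 CPM in WT. Among the partner genes highest relative to hepatocyte-like nuclei, Spi1, which codes for PU.1, had 76.8 CPM in HKO and 81.7 CPM in WT (-0.09). Inpp5d had 187 CPM in HKO, against 170 CPM in WT (0.14), and Pik3cd 157 CPM in HKO and 113 CPM in WT (0.47).

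Several partner ratios were shared by classes that also share free hepatocyte RNA. Il6ra, the interleukin 6 receptor gene, had 457 CPM in HKO, against 135 CPM in WT hepatocyte-like nuclei (log2 ratio 1.76), and its ratio was 1.74 in endothelial-like and 1.65 in stellate-like nuclei. Lifr, the leukaemia inhibitory factor receptor gene, had 348 CPM in HKO, against 828 CPM in WT hepatocyte-like nuclei (-1.25), and its ratio was -1.43 in macrophage-like nuclei. Socs3, a brake on cytokine signalling, had 20.1 CPM in HKO, against 52.3 CPM in WT (-1.36), and Id3 had 42.1 CPM in HKO and 104 CPM in WT (-1.29). In macrophage-like nuclei these 4 genes had levels near those of hepatocyte-like nuclei: Il6ra 374 CPM in HKO and 151 CPM in WT, Lifr 279 CPM in HKO and 752 CPM in WT, Socs3 18.3 CPM in HKO, against 39.3 CPM in WT, and Id3 49.4 CPM in HKO and 100.4 CPM in WT. Of the partners enriched in endothelial-like nuclei, Tek, the angiopoietin receptor gene, had 115 CPM in HKO, against 149 CPM in WT (-0.37), and Bmp2 had 55.4 CPM in HKO and 54.9 CPM in WT (0.01). Inpp5d (0.48) and Tfec (-0.15) were the other 2 endothelial partners by this rule, and Irf8 (-1.37), Id3 (-1.05) and Socs3 (-0.78) had the largest stellate ratios after Il6ra. Angpt1 (-0.30), Zeb2 (-0.33), Gab2 (-0.06) and Tgfb1 (-0.36) led in stellate-like nuclei relative to hepatocyte-like ones.

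Some genes followed the 9 genes closely across classes. Likeness was Pearson's r of log2 levels over 11 class and library units among 11099 genes, units that share libraries and depth. For Csf1r the closest gene was Ctss, the macrophage protease cathepsin S (r = 0.974), then Ksr2 and Abr. For Csf3r they were Rap1gds1 (0.973), Madd and Stk10, for Csf2ra Apbb1ip (0.984), Pak1 and Basp1, and for Csf2rb Clec12a (0.972), AB124611 and Rasgrp1. Kit was closest to Ushbp1 (0.971), Arhgef15 and Ppp1r16b, and Kitl to Ntn4 (0.931), Pacs1 and Sncaip. Il34 was closest to Lhfp (0.956), Cacnb2 and Eps8, and Csf1 to Thsd7a (0.961), Sept10 and Prkd1. Flt3 had too few UMIs for this measure.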

How the data were processed

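Nuclear RNA of mouse liver was profiled in 1 HKO and 1 WT library. The deposited values are raw counts of UMIs per gene and barcode, not normalized, and the submitters' processing notes name Cell Ranger 5.0.0, Seurat 3.2.0, STAR and GRCm38 with no role or order. Groups were taken from sample titles, since the genotype field held the age. The labels give nuclear RNA as the molecule, but their extract protocol describes total RNA. The 9 genes, the marker and partner lists and the rule for named genes were chosen with earlier results of these data known.

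Nuclei were kept (14902 HKO, 14515 WT) where they had 500 genes or more and a mitochondrial share of UMIs below 10%. No doublet caller was run and doublets were left in. The libraries were clustered together on 2000 variable genes without the 9 genes and partners (30 components, 15 neighbours, Leiden resolution 0.5; Python 3.11.15, scikit-learn 1.9.0, leidenalg 0.10.2, igraph 0.11.9). For a class other than hepatocyte-like, a cluster had to hold 3 or more markers at least 2-fold above the median cluster. Their mean log2 score had to be at least 1. Clusters that no such class took were called hepatocyte-like where 3 or more of 15 hepatocyte markers lay above the median of the other large classes. WT cluster 5 was named so with 6 of 15, while the WT endothelial-like cluster 8 had 14 of 15. The 20 CPM floor for markers and the mixed class, for scores within 0.5 on the log2 scale, were set after the data were seen, as were the stellate sub-clusters and the splits by zone and cycling. Hepatocyte-like clusters came mostly from 1 library each, in HKO and in WT.

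For each class the counts of a library were added up and scaled to 1e6 (CPM). Ratios are log2 of HKO over WT after adding 0.5 CPM, and folds are ratios of CPM without it. A ratio needed at least 20 UMIs over both libraries and 100 nuclei in each. No test was made, since each group has 1 library. Intervals are exact (Poisson, conditional binomial, Clopper-Pearson; SciPy 1.17.1), at 95%, for counting error only. TMM factors came from edgeR 4.0.16. The ratio and interval code was tested on simulated data. Of 27998 gene identifiers, 27645 matched GENCODE vM21. The named genes are the 9 genes, the 3 most alike genes of each with at least 100 UMIs in each library, and per class up to 4 partners with the largest ratio and up to 4 highest relative to hepatocyte-like nuclei; genes that lead a sub-cluster, Irf8 in macrophage-like nuclei and the ligands Csf2, Csf3, Il3, Flt3l and Thpo were named after their values were seen. A gene that the naming rule chose is not reported here.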

Additional observations from a re-analysis of the deposited data

Results flagged for a closer look

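Kitl and Csf1r changed in opposite directions between classes of nuclei, with intervals apart from a ratio of 1, while the difference between the classes itself was not tested. For Kitl the log2 ratio of HKO over WT was 0.55 in endothelial-like nuclei and -1.10 in macrophage-like nuclei. For Csf1r it was 0.84 in endothelial-like nuclei, -0.36 in hepatocyte-like nuclei and -0.81 in stellate-like nuclei. In the sub-clusters richest in their own markers, the endothelial log2 ratios were -0.09 for Kitl and -0.64 for Csf1r, and the macrophage one for Kitl was -1.001.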

How the results depend on the processing

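No paired analysis was possible because each group has 1 library, and for the same reason no replicate could be left out. Of the 7 pairs of gene and class past 2-fold, all 7 stayed past it at resolution 1 and with TMM or median ratio size factors, 4 with all variable genes, with at least 1000 genes or with a pseudocount of 5, and 6 with at least 2000 UMIs. Pairs past 2-fold higher (4) were 7 after the hepatocyte-like level was subtracted, which could be done for 23 of the 33 pairs, and 2 in the sub-clusters with the highest own markers, which could be computed for 19 of the 33 pairs. Pairs past 2-fold lower (3) were 0 with all variable genes, 0 with at least 1000 genes, 5 with at least 2000 UMIs, 7 per nucleus, 1 with a pseudocount of 5 and 7 after subtraction; the cause was not tested. Kit in macrophage-like nuclei reversed, with a log2 ratio of 0.029 in the sub-cluster with the highest macrophage markers. Of the pairs within 2-fold, 5 turned sign in such sub-clusters: Csf1r (-0.64), Csf2rb (-0.21) and Kitl (-0.09) in endothelial-like nuclei, and Csf2ra (-0.32) and Csf2rb (-0.11) in macrophage-like nuclei. In such sub-clusters of endothelial-like and macrophage-like nuclei 3 genes passed 2-fold, and 5 with stellate-like nuclei added. This sub-cluster comparison and the stellate sub-clusters were chosen after seeing the data.

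With a floor of 50 CPM fewer genes were tested, and the genes past 2-fold higher and lower numbered 123 and 175 (hepatocyte-like), 108 and 192 (endothelial-like), 103 and 170 (macrophage-like) and 94 and 183 (stellate-like), beside 193 and 290, 192 and 316, 181 and 265, and 171 and 301 with 20 CPM. Size factors gave 121 higher in hepatocyte-like, against 193. They also moved the share of higher among all called genes to 23.5% (hepatocyte-like), 23.9% (endothelial-like), 29.8% (macrophage-like) and 22.6% (stellate-like), from 40.0%, 37.8%, 40.6% and 36.2%, and TMM to 28.6%, 27.3%, 33.0% and 25.9%. WT dendritic-like and cholangiocyte-like nuclei limit what can be said of Flt3 and of Kitl outside endothelium.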
